A study of Mus musculus with 10 samples.

Results

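The STAT genes encode the transcription factors of the JAK-STAT pathway, and 6 of them were followed here: Stat2, Stat3, Stat4, Stat5a, Stat5b and Stat6. They were taken by symbol from all 10 RNA-seq libraries of the series and are 6 of the 19025 genes in the files. All 6 passed the filter on low values that left 12907 genes. The value of a gene is its highest transcript row in FPKM, which divides fragments by transcript length and library total, a scale on which levels of different genes can be compared.

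Each of 5 groups of C57BL/6 mouse cells had 2 libraries. The first was Th2 cultures with trichostatin A (TSA), a histone deacetylase inhibitor. Splenic CD4 T cells were kept for 5 days with 15 ng/ml IL-2 and 10 ng/ml IL-4, and 10 nM TSA was present for the last 3 days, from day 2. The second was Th2 cultures with the same cytokines and duration but no TSA. Whether they received a vehicle is not given in the sources used here. The third and the fourth were splenic CD4 T cells and splenic B220 B cells, per the labels' protocols purified on magnetic beads to over 98%. For B cells the labels give mice of 6 to 8 weeks, and for CD4 T cells the same. The fifth was ES cells of the line B6N-22, grown with 1000 units/ml of the cytokine LIF and 20% serum on mitomycin-treated embryonic fibroblasts, so that each ES library can hold feeder RNA. LIF itself activates STAT3, and IL-2 and IL-4 activate STAT5 and STAT6, so the cultured groups were under cytokines of this pathway and the splenic groups had none added.

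STAT proteins wait in the cytoplasm until a cytokine receptor is engaged. Janus kinases bound to the receptor then phosphorylate them on a tyrosine, they pair through their SH2 domains, and the dimers enter the nucleus and bind DNA. STAT2 works in interferon signalling together with IRF9. STAT3 answers to cytokines that use the gp130 chain, such as IL-6 and LIF, and in mouse ES cells it maintains self-renewal. STAT4 carries the IL-12 signal towards Th1 cells, STAT6 carries the IL-4 signal towards Th2 cells, and the close paralogs STAT5A and STAT5B carry the signals of IL-2 and IL-7. RNA levels do not show phosphorylation, and activity of the proteins was not measured.

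The genes lie on 3 chromosomes in the RefSeq annotation of GRCm38.p6. Stat5b, Stat5a and Stat3 are neighbours on chromosome 11 with no other gene between them. Stat5b (chr11:100780731-100859004, minus strand) ends 346 bases before Stat5a (chr11:100859351-100885169, plus strand), and Stat3 (chr11:100886806-100939594, minus strand) follows 1636 bases later. Stat6 (chr10:127642955-127660987) and Stat2 (chr10:128270498-128292853) share chromosome 10 and its plus strand, 609510 bases apart with 39 genes between them. Stat4 is on the plus strand of chromosome 1 (chr1:51987106-52107189).

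RefSeq promoter windows of 300 bases, from 250 before to 50 after a start site, were found for all 6 genes. They were searched on both strands for TTCNNNGAA, the core of the site that most STAT dimers bind, and for GAAANNGAA, a core of the interferon-stimulated response element bound by STAT2 with IRF9. TTCNNNGAA was in 8.3% of 32851 promoters and in none of the STAT windows. GAAANNGAA was in 8.56% of promoters, and it was found 1 time in the Stat2 window and 1 time in the window of a downstream Stat4 start (chr1:52007990-52008289). The Stat2 and Stat6 windows are printed because these genes stood farthest apart between the TSA-treated and untreated cultures. Capitals in the Stat2 window mark the GAAANNGAA match, which lies on the minus strand and begins at position -221 from the start site. The Stat6 window held neither motif, which says only that these letters are not in it.
Stat2, chr10:128270248-128270547, plus strand: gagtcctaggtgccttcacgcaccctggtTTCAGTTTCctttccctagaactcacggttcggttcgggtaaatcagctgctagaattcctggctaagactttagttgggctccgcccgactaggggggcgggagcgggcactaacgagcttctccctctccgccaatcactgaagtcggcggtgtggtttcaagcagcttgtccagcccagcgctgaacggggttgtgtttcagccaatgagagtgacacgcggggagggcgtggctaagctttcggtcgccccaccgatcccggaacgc
Stat6, chr10:127642736-127643035, plus strand: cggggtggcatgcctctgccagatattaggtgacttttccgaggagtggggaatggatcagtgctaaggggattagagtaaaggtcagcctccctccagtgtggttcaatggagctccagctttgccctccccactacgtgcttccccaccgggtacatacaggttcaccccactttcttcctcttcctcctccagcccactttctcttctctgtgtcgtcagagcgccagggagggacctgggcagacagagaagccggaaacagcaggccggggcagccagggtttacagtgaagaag

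For Stat5a and Stat5b, the printed windows are those that held the longest run of bases shared by any 2 STAT genes. Each of these genes had another window, not printed, at chr11:100859406-100859705 for Stat5a and chr11:100850532-100850831 for Stat5b. Each printed window belongs to a start that lies inside the gene's annotated span. The run was 16 bases long, and it stands in capitals. It begins at -32 in the Stat5a window and at -23 in the Stat5b window.
Stat5a, chr11:100860234-100860533, plus strand: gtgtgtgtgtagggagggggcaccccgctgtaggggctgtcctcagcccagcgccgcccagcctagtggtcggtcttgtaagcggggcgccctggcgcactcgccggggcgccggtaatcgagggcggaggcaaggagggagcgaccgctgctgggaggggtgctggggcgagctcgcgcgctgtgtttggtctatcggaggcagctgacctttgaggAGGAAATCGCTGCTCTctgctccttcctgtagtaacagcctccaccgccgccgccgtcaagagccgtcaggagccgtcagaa
Stat5b, chr11:100822521-100822820, minus strand: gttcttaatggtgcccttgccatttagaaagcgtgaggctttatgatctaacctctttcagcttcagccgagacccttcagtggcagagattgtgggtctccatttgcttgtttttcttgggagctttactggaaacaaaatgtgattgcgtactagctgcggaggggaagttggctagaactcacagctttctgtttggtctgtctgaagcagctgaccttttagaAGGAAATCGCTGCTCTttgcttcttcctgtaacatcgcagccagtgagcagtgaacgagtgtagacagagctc

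The libraries limit what can be compared. The pairs of CD4 T, B and ES libraries were nearly identical (SD of their log2 ratio 0.0468 to 0.0502), so each pair counts as 1 sample. Depth is unknown, so the size of read sampling could not be computed for them. Where the libraries of these cell types do not overlap, that reflects technical spread only. The SD was 0.327 for the TSA-treated pair and 0.282 for the untreated Th2 pair, and these groups have n = 2. Whether these came from separate mice or cultures is not given, and p-values cover this spread alone, which may be technical. T cell, B cell and pluripotency markers were highest where the labels place them. Summed T cell markers (7 genes) were 1175.1 to 1194.9 FPKM in TSA-treated Th2, 1325.7 to 1326.7 in untreated Th2, 2197.7 to 2198.2 in CD4 T, 55.0 to 55.2 in B and 14.0 to 15.0 in ES libraries. Pluripotency markers (7 genes) summed to 2473.5 to 2477.2 FPKM in ES cells and at most 2.03 elsewhere. B cell markers (8 genes) summed to 5104.2 to 5107.9 FPKM in B and 291 to 295 in CD4 T libraries. Myeloid markers (8 genes), of a cell type that no label names, were highest in CD4 T libraries. They summed to 433 to 436 FPKM there and 125 to 127 in B libraries.

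STAT RNA was lowest in ES cells. The 6 genes summed to 216 ± 6.23 FPKM in TSA-treated Th2 and 206 ± 16.1 in untreated Th2 cultures (SD, n = 2 each), 293 in CD4 T, 235 in B and 51.9 in ES cells. Which STAT led differed by group. Stat3 was the most abundant in TSA-treated Th2 (28.4% and 29.7% of the sum), in untreated Th2 (27.9% and 31.9%) and in ES cells (55.0% and 55.5%). Stat6 led in CD4 T cells (26.5% in each library) and in B cells (34.2% in each). This rests on the highest row per gene. With rows summed, Stat3, which has 3 near-equal rows, would lead there too. Stat5a was the least abundant of the 6 in every library.

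**Figure D1:**
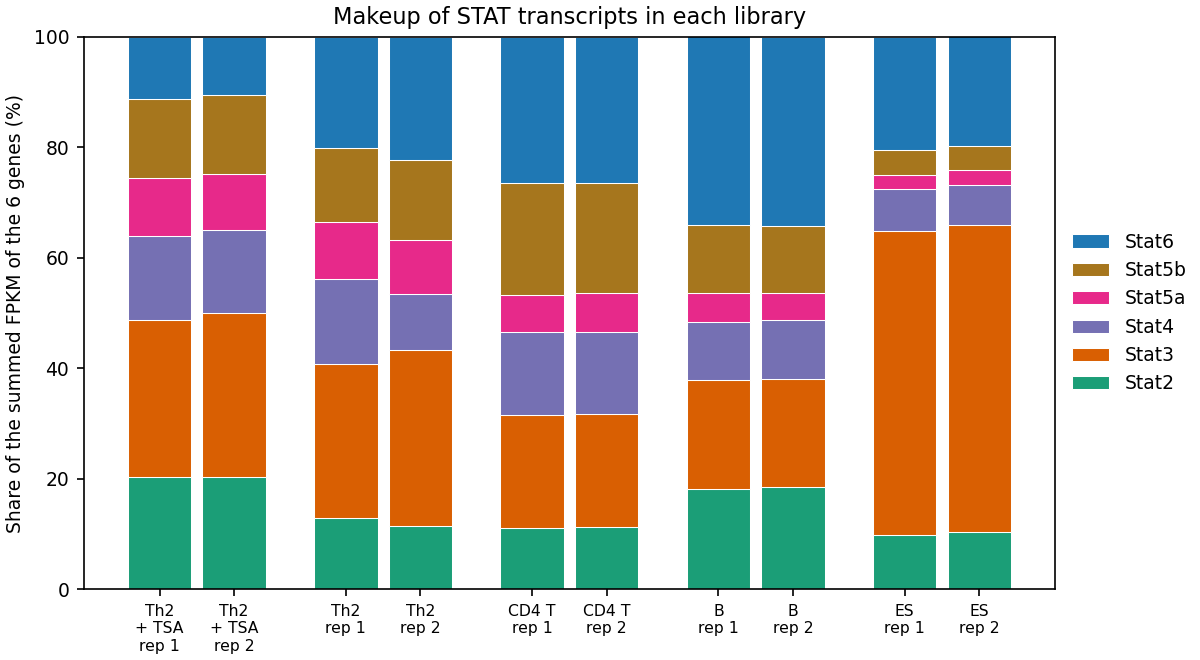
Share of each of the 6 STAT genes in their summed FPKM, in percent (vertical axis), with 1 stacked bar per library. Stat3 fills 55.0% and 55.5% of the ES bars, Stat6 fills 34.2% of each B bar, and the Stat2 part is wider and the Stat6 part narrower in TSA-treated than in untreated Th2 libraries.

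Stat2, the interferon-signalling member, had 45.03 and 43.04 FPKM in TSA-treated Th2, 25.13 and 24.83 in untreated Th2, 32.38 and 32.84 in CD4 T, 42.57 and 43.71 in B, and 5.12 and 5.38 in ES libraries. TSA-treated Th2 and B cells overlapped at the top, CD4 T cells came next, then untreated Th2, and ES cells were lowest. Its place among the 12907 genes moved accordingly, with percentiles of 87.3 and 86.8 in TSA-treated Th2, 76.4 and 76.3 in untreated Th2, 78.7 and 79.0 in CD4 T, 85.5 and 86.0 in B, and 33.7 and 34.7 in ES libraries.

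Stat3 had the flattest profile, with its highest group mean 2.19 times its lowest. It was at 62.67 and 62.9 FPKM in TSA-treated Th2, 54.22 and 69.35 in untreated Th2, 59.83 and 60.26 in CD4 T, 46.46 and 46.13 in B, and 28.69 and 28.62 in ES libraries. The 3 T cell groups overlapped, B cells were below them and ES cells lowest. In ES cells Stat3 was still at percentiles 75.6 and 75.5, while each other member was at 49.8 or lower there.

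Stat4, the IL-12 responder, had 33.45 and 31.75 FPKM in TSA-treated Th2, 29.92 and 22.1 in untreated Th2, 43.89 and 43.3 in CD4 T, 24.68 and 25.34 in B, and 4.01 and 3.78 in ES libraries. CD4 T cells were highest, untreated Th2 and B cells overlapped, TSA-treated Th2 stood between, and ES cells were lowest.

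Stat5a had 23.2 and 21.37 FPKM in TSA-treated Th2, 19.75 and 21.01 in untreated Th2, 20.0 and 20.9 in CD4 T, 12.38 and 11.73 in B, and 1.31 and 1.34 in ES libraries. The TSA-treated libraries were just above the other T cell libraries, which overlapped each other. Its paralog Stat5b had the widest range of the 6, with its highest group mean 25.5 times its lowest. It was at 31.61 and 30.35 FPKM in TSA-treated Th2, 26.1 and 31.59 in untreated Th2, 59.01 and 58.34 in CD4 T, 28.57 and 28.39 in B, and 2.32 and 2.28 in ES libraries. CD4 T cells stood alone at the top, and the Th2 groups and B cells overlapped. The ratio of Stat5a to Stat5b within a library, which does not change when all genes of a library are multiplied by 1 factor, was 0.734 and 0.704 in TSA-treated Th2, 0.757 and 0.665 in untreated Th2, 0.339 and 0.358 in CD4 T, 0.433 and 0.413 in B, and 0.565 and 0.588 in ES libraries. How reads that match both paralogs were assigned is not given in the sources used here, so the split between them is uncertain. Stat5b has 2 rows, which hold 1 repeated value in the Th2 files and differing values in the others. The contrast of the ratio between Th2 and other groups therefore also depends on how rows are used.

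Stat6, the IL-4 responder, had 24.73 and 22.47 FPKM in TSA-treated Th2, 39.26 and 48.24 in untreated Th2, 77.48 and 77.71 in CD4 T, 80.28 and 80.71 in B, and 10.67 and 10.2 in ES libraries. The libraries of the 5 groups did not overlap, in the order B, CD4 T, untreated Th2, TSA-treated Th2 and ES. B and CD4 T cells were close, at 80.5 and 77.6 FPKM, and with 1 sample each their order is not established. In these libraries the Th2 cultures thus had less Stat6 RNA than splenic CD4 T cells, and the TSA-treated ones less again. On the deposited values the test below did not call the TSA difference. The call against CD4 T cells was lost after median-ratio scaling.

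**Figure D2:**
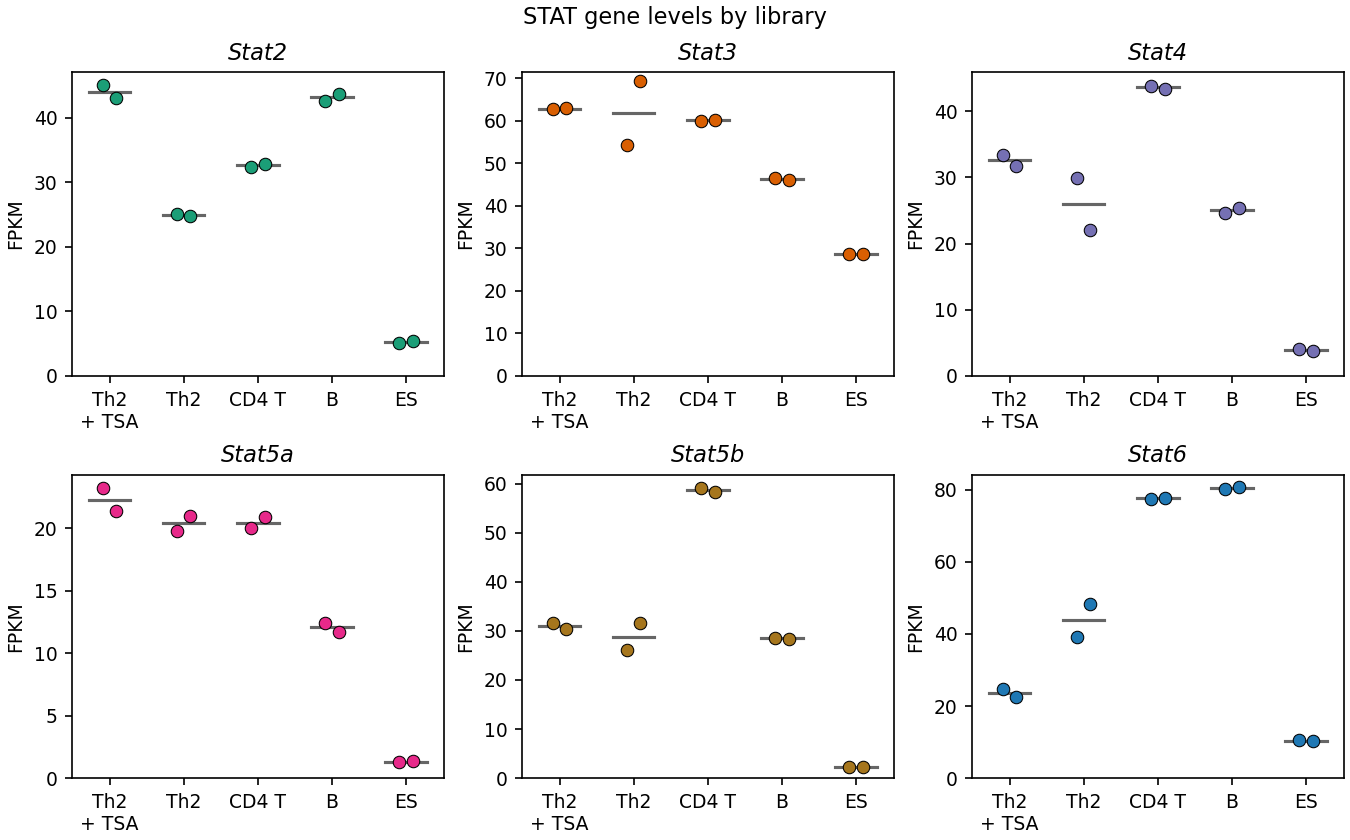
FPKM of each STAT gene (vertical axes, each starting at 0 with its own scale) in the 2 libraries of each group (points), with their mean (line). Stat2 is at 45.03 and 43.04 in TSA-treated against 25.13 and 24.83 in untreated Th2, and Stat5b is highest in the CD4 T pair. Stat6 is close in B and CD4 T, lower in Th2 and lower again in TSA-treated Th2.

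TSA-treated were compared with untreated Th2 cultures to see what TSA does to STAT RNA under the same cytokines. Of the 6 genes, 1 passed the test upward (Stat2) and none downward; at an unadjusted p below 0.05 limma had 1 each way, Stat2 and Stat6. The test was limma on log2(FPKM + 1) across all 12907 genes, two-sided, with Benjamini-Hochberg adjustment and a threshold of 0.05. It called 9.26% of all genes higher and 4.14% lower with TSA (1195 and 534 genes, against 893 and 728 after quantile normalization and 1108 and 737 after median-ratio scaling). Stat2 was at 44.0 ± 1.41 FPKM in TSA-treated and 25.0 ± 0.212 in untreated cultures (SD, n = 2 each), 1.76 times as high (log2 fold change 0.79 ± 0.062 SE, limma adjusted p = 0.0301). It was higher in both treated libraries, and it was also called after quantile normalization (0.77, adjusted p = 0.0312) and median-ratio scaling (0.72, adjusted p = 0.0322). Leaving out any 1 of the 4 Th2 libraries ended the call, with adjusted p between 0.0876 and 0.21 in fits with 1 residual degree of freedom. Without untreated Th2 replicate 1 or without replicate 2, limma called none of the 12907 genes with TSA (1708 higher and 1035 lower at an unadjusted p below 0.05 without replicate 1, and 1791 and 886 without replicate 2).

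Stat6 showed the largest difference in the other direction but missed the threshold. It was at 23.6 ± 1.6 FPKM in TSA-treated and 43.8 ± 6.35 in untreated cultures (SD, n = 2 each), a ratio of 0.539 (log2 fold change -0.86 ± 0.14 SE, limma adjusted p = 0.0513), and lower in both treated libraries. The adjusted p was 0.0486 after quantile normalization and 0.0473 after median-ratio scaling, so the call turns on the scaling. Within libraries, Stat2 was 1.82 and 1.92 times Stat6 in TSA-treated cultures, against 0.64 and 0.515 times in untreated ones. Stat2 took 20.4% and 20.3% of the STAT sum in treated and 12.9% and 11.4% in untreated libraries, and Stat6 took 11.2% and 10.6% in treated and 20.2% and 22.2% in untreated ones.

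The other members were closer between the cultures, and none was called. The log2 fold change was 0.33 ± 0.18 SE for Stat4 (limma adjusted p = 0.284), 0.12 ± 0.089 for Stat5a (adjusted p = 0.401), 0.11 ± 0.12 for Stat5b (adjusted p = 0.59) and 0.03 ± 0.15 for Stat3 (adjusted p = 0.918). The libraries of treated and untreated cultures overlapped for Stat3 and Stat5b and did not for Stat4 and Stat5a. For Stat5a the gap was from 21.01 to 21.37 FPKM. How often libraries do not overlap over all genes was not counted, so this is no sign of a difference. The median of the 6 genes was 0.11, beside 0.02 over all genes tested.

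B cell markers also differed between these cultures. Summed over 8 genes they were at 19.4 to 46.8 FPKM in TSA-treated and 4.57 to 6.7 in untreated Th2 libraries. Of the 8, 3 passed the test upward, beside 9.26% of all genes. Pax5, a defining B cell factor and 1 of those 3, was listed at 0 in both untreated libraries. In the treated libraries it was at 0.87 and 0.88 FPKM, near the floor. Stat2 stood at 43.1 FPKM in the B cell libraries, whose summed markers were 5104.2 to 5107.9. The part of these markers in the Stat2 difference was not tested. In bulk RNA, fewer cells of a type and less RNA per cell cannot be told apart.

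Among the other genes of the pathway, several that act with STAT2, STAT4 and STAT6 differed with TSA. Counts are over the tested members of each list, whose median log2 fold changes lie between -0.37 and 1.04. Over all genes 9.26% were called higher and 4.14% lower. In the list of reported STAT2-IRF9 targets 3 of 12 were higher and none lower (6 and 0 at an unadjusted p below 0.05 in limma). Mx1, an antiviral GTPase gene, had 15.82 and 21.16 FPKM in TSA-treated and 1.92 and 1.35 in untreated cultures (log2 fold change 2.88, limma adjusted p = 0.0301). Usp18, which encodes a negative regulator of interferon signalling, had 5.94 and 7.38 in treated and 2.16 and 1.98 in untreated ones (1.31, adjusted p = 0.0349). The third was Oas1a, named after its values were seen, at 2.56 and 2.63 FPKM in treated and 0.54 and 0.43 in untreated cultures. Irf9, the partner of STAT2, had a log2 fold change of 0.37 (adjusted p = 0.115).

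In the list of reported STAT4 targets 3 of 7 were higher with TSA and none lower (5 and 0 at an unadjusted p below 0.05 in limma). Il12rb2, which encodes the signalling chain of the IL-12 receptor upstream of STAT4, had 81.88 and 62.97 FPKM in TSA-treated and 18.47 and 12.13 in untreated cultures (log2 fold change 2.19, limma adjusted p = 0.0402). Tbx21, which encodes the Th1 factor T-bet, had 22.35 and 23.36 in treated and 7.8 and 7.07 in untreated ones (log2 fold change 1.5, adjusted p = 0.0282). The third was Il18r1, named after its values were seen, with a log2 fold change of 0.97, and it was not called under either other scaling. Stat4 itself was not called.

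In the list of reported STAT6 targets 2 of 8 were higher and 2 lower. Il4ra, the IL-4 receptor chain that recruits STAT6, fell to 149.37 and 148.56 FPKM in TSA-treated cultures, against 292.14 and 327.33 in untreated ones (log2 fold change -1.05, limma adjusted p = 0.0302). Gata3, the master factor of Th2 cells, fell to 49.01 and 49.24, against 80.32 and 98.14 in untreated cultures (-0.84, adjusted p = 0.0485, and 0.0501 after quantile normalization). The chemokine gene Ccl22 was higher, at 6.7 and 11.43 FPKM with TSA and 0.6 and 1.4 without (2.32, adjusted p = 0.0499), and it was not called after median-ratio scaling. Fcer2a, named after its values were seen, was the other higher one, with a log2 fold change of 1.49, and it is also on the list of B cell markers.

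**Figure D3:**
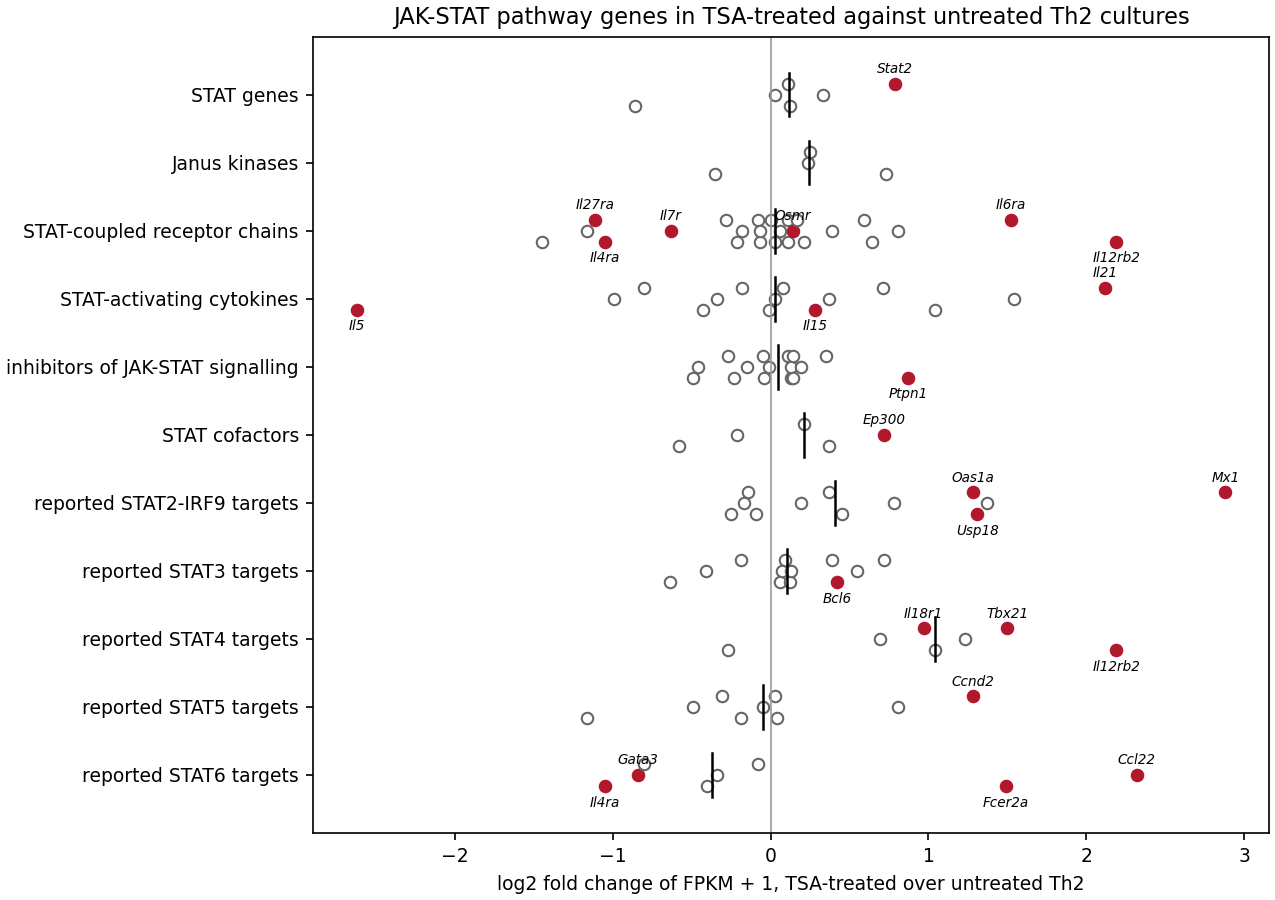
Log2 fold change of FPKM + 1, TSA-treated over untreated Th2 cultures (horizontal axis), for the tested genes of each list (rows), with called genes filled and named and the median of each row as a bar. Stat2 is the 1 filled point among the STAT genes at 0.79, Mx1 is at 2.88, Il12rb2 at 2.19, Il4ra at -1.05 and Il5 at -2.62.

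Further up the pathway, none of the 4 Janus kinase genes passed limma's test with TSA (1, Jak2, was higher at an unadjusted p below 0.05 and was called after quantile normalization), and Jak1, Jak3 and Tyk2 had log2 fold changes of 0.25, -0.35 and 0.24. The counts that follow stand beside 9.26% of all genes called higher and 4.14% called lower with TSA. Of 25 receptor chains 3 were higher and 3 lower, and after quantile normalization 2 and 2. These included Il6ra, the IL-6 receptor, higher at 7.68 and 7.22 FPKM with TSA and 2.05 and 1.86 without, and Il27ra, lower at 14.34 and 15.56 with TSA and 30.62 and 36.5 without. Of 15 cytokines 2 were higher and 1 lower, and after quantile normalization 2 were higher (Il10 and Il15) and 3 lower (Il5, Il6 and Il27). The Th2 cytokine gene Il5 fell to 3.92 and 2.08 FPKM with TSA, against 23.08 and 22.81 without (log2 fold change -2.62, limma adjusted p = 0.0343), and Il21 was higher at 3.62 and 6.78 with TSA and 0.23 and 0.55 without, a call that quantile normalization ended. Among 16 inhibitors only Ptpn1, a phosphatase gene, passed, upward (0.87). Socs1 and Socs3, feedback inhibitors, had log2 fold changes of -0.01 and 0.13, and Cish, a STAT5 target and inhibitor, of -0.49. Of 5 cofactors the acetyltransferase gene Ep300 passed, upward (0.72). Of the STAT5 targets 1 of 9 was higher, the cyclin gene Ccnd2 (1.28). Of the STAT3 targets 1 of 12 was higher, Bcl6, named after its values were seen. Bcl6 was at 0.61 and 0.66 FPKM with TSA and 0.23 and 0.21 without, and was not called after quantile normalization. The STAT5 and STAT3 target counts are near the 9.26% of all genes called higher. Several genes stand on more than 1 list, Il12rb2 and Il4ra among them.

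Th2 cultures were compared with splenic CD4 T cells, the kind of cell they were started from. Of the 6 genes 3 were lower in Th2 cells (Stat2, Stat5b and Stat6) and none higher (limma, 0 higher and 4 lower at an unadjusted p below 0.05), in a comparison that called 38.1% of 12367 genes lower and 16.9% higher. The median log2 fold change of all genes was -0.28, and that of the 6 genes was -0.56. The calls split into 2086 higher and 4709 lower here, into 3236 and 3307 with quantile normalization, and into 2875 and 3420 with median-ratio scaling, so directions near this median depend on the scaling.

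Stat5b had the largest change. It fell to 28.8 ± 3.88 FPKM in Th2 cells (SD, n = 2), against 58.7 in CD4 T cells, a ratio of 0.492 (log2 fold change -1.01 ± 0.15 SE, limma adjusted p = 0.0161). It was called also after quantile normalization (-0.95, adjusted p = 0.0136) and median-ratio scaling (-0.64, adjusted p = 0.0484). Stat5a was at 20.4 ± 0.891 FPKM in Th2 and 20.4 in CD4 T cells (log2 fold change -0.01, adjusted p = 0.976), with values of 0.29 and 0.36 under those scalings, neither called.

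Stat6 fell to 43.8 ± 6.35 FPKM in Th2 cells, against 77.6 in CD4 T cells (log2 fold change -0.82 ± 0.17 SE, limma adjusted p = 0.0315), but after median-ratio scaling it was not called (-0.45, adjusted p = 0.123). Stat2 fell to 25.0 ± 0.212 in Th2 cells, against 32.6 in CD4 T cells (-0.37 ± 0.075 SE, adjusted p = 0.0305). It was called under neither scaling, with -0.16 and adjusted p = 0.193 after quantile normalization and -0.01 and adjusted p = 0.963 after median-ratio scaling. Leaving out any 1 of the 4 Th2 libraries, treated or not, ended the Stat2 and Stat6 calls (adjusted p from 0.0727 to 0.154 and from 0.0568 to 0.0841). Stat5b was still called without untreated Th2 replicate 2 (adjusted p = 0.0448) and not without any of the other 3 (0.054 to 0.0603). Stat4 was at 26.0 ± 5.53 and 43.6 FPKM in Th2 and CD4 T cells (-0.74 ± 0.22 SE, limma adjusted p = 0.0683) and was not called. Stat3 was at 61.8 ± 10.7 and 60.0 FPKM in Th2 and CD4 T cells (0.03, adjusted p = 0.905).

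**Figure D4:**
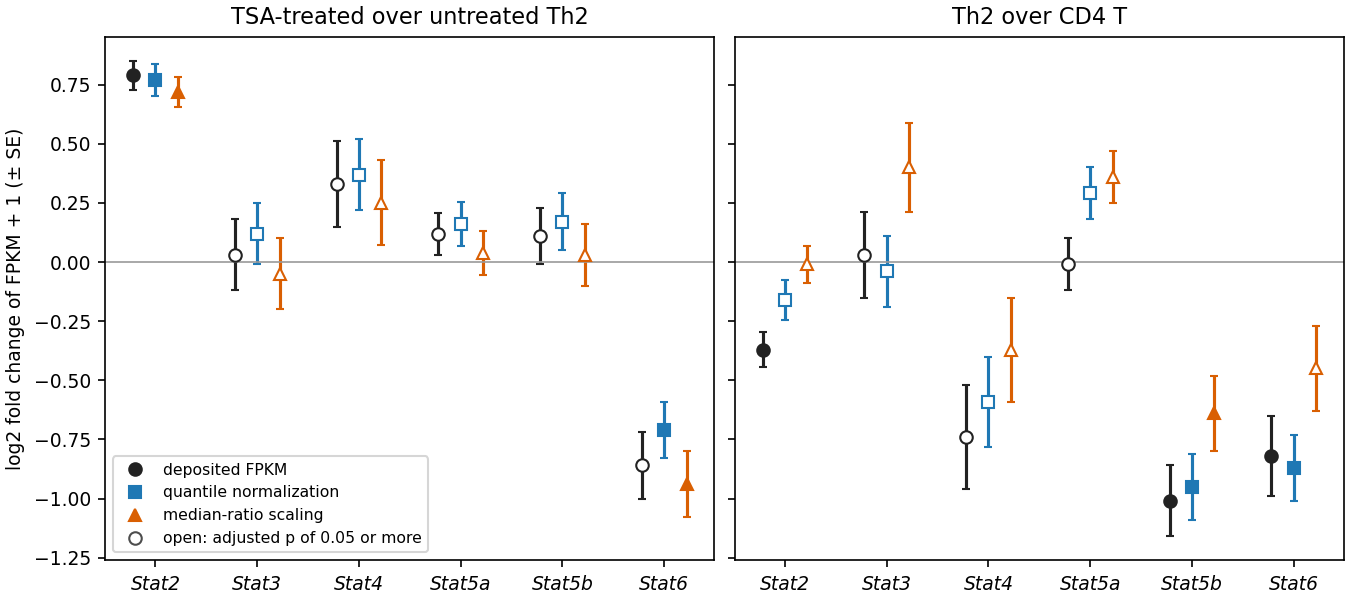
Log2 fold change of FPKM + 1 with its SE (vertical axis) for each STAT gene in TSA-treated over untreated Th2 (left) and Th2 over CD4 T (right), on the deposited values and after each of 2 scalings. Filled points have a limma adjusted p below 0.05; Stat2 is filled in all 3 on the left, and on the right Stat5b is the gene filled in all 3.

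Other differences ran alongside the Th2 comparison. The 4 Th2 files repeat 1 value for every row of a gene while the other 6 hold a value per row, so the kind of file and the culture cannot be told apart. The 3 Stat3 rows were within a ratio of 0.989 of each other in the 6 other libraries and the 2 Stat5b rows within 0.845 to 0.876. Counts of called markers stand beside 38.1% of all genes called lower and 16.9% called higher. Of 7 T cell markers 5 were called lower in Th2 and none higher, with a median log2 fold change of -0.82. After quantile normalization 7 were lower, and after median-ratio scaling 2 were, Cd4 and Cd5. B cell markers summed to 4.57 to 6.7 FPKM in Th2 and 291 to 295 in CD4 T libraries. Myeloid markers (8 genes) summed to 9.17 to 9.27 in Th2 and 433 to 436 in CD4 T libraries, and C1qa, C1qb and C1qc among them were listed at 0 in both Th2 libraries. Of 5 tested NK and cytotoxic markers 4 were lower in Th2 (Cd8a, Cd8b1, Klrb1c and Nkg7) and 1, Gzma, was higher, at 338.82 and 984.56 FPKM in Th2 and 3.39 and 3.32 in CD4 T libraries. Gzma carried the sum of the list (6 genes), which was 356 to 1000.0 in Th2 and 71.9 to 74.3 in CD4 T libraries. Stat6 was at 80.5 FPKM in the B cell libraries themselves, and the part of these markers in the results was not tested.

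Other pathway genes changed in both directions, where 16.9% of all genes were called higher and 38.1% lower in Th2 cells. Of the 4 Janus kinase genes 3 were lower in Th2 cells: Jak1 at 59.37 and 52.86 FPKM in Th2 and 195.57 and 193.65 in CD4 T libraries (log2 fold change -1.78, limma adjusted p = 0.0047), Tyk2 (-1.24) and Jak2 (-1.05). Jak3, which pairs with the common gamma chain, was at 91.2 and 130.67 in Th2 and 63.46 and 63.33 in CD4 T libraries (0.77, adjusted p = 0.116). Of 24 receptor chains 4 were higher and 15 lower. Il2ra, the high-affinity IL-2 receptor chain, had 717.79 and 645.97 FPKM in Th2 and 20.2 and 19.87 in CD4 T libraries (5.02, adjusted p = 0.00338). Il4ra had 292.14 and 327.33 in Th2 and 51.0 and 51.79 in CD4 T libraries (2.57, adjusted p = 0.00186). Il6ra fell to 2.05 and 1.86 in Th2 libraries, against 87.46 and 88.32 in CD4 T libraries (-4.91, adjusted p = 0.000875). Il6st, the gene of gp130, fell by 1.80 on the log2 scale, and Il2rg, the common gamma chain, by 0.78, which was not called after median-ratio scaling.

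Genes reported downstream of STAT5 and STAT6 were mostly higher in Th2 cells, while Stat5b and Stat6 were lower. For comparison, 16.9% of all genes were called higher and 38.1% lower. Of the STAT5 targets 6 of 9 were higher and 1 lower (list median 1.87). Socs2 had 149.58 and 122.42 FPKM in Th2 and 4.23 and 4.21 in CD4 T libraries (log2 fold change 4.71, limma adjusted p = 0.0014), and Cish had 177.32 and 214.64 in Th2 and 26.41 and 25.66 in CD4 T libraries (2.86, adjusted p = 0.00533). Foxp3, the regulatory T cell factor, was the lower one (-4.12). Of the STAT6 targets 6 of 8 were higher and 1 lower (median 3.20). Il24 had 252.73 and 259.33 FPKM in Th2 and 0.01 and 0.06 in CD4 T libraries, and Nfil3 had 187.54 and 231.51 in Th2 and 2.12 and 2.07 in CD4 T libraries. Gata3 had 80.32 and 98.14 in Th2 and 19.89 and 20.31 in CD4 T libraries (2.09, adjusted p = 0.00487). Fcer2a, the low-affinity IgE receptor gene of B cells, was lower (-4.30).

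Genes on the STAT2 and STAT4 target lists were also called. The counts here stand beside 16.9% of all genes called higher and 38.1% called lower in Th2 cells. Of the STAT2-IRF9 targets 11 of 12 were lower and none higher (list median -2.97; 11 and 0 at an unadjusted p below 0.05 in limma). Usp18 fell to 2.16 and 1.98 FPKM in Th2 libraries, against 37.45 and 37.7 in CD4 T libraries (log2 fold change -3.65, limma adjusted p = 0.00249), and Irf9 fell to 20.34 and 19.95, against 66.46 and 66.71 (-1.68, adjusted p = 0.00508). Of the STAT4 targets 4 of 7 were lower and none higher (list median -0.59; 4 lower and 1 higher at an unadjusted p below 0.05 in limma), among them Il18r1 (-3.63) and Ifng (-2.48). Under either other scaling 2 of the 7 were lower, those 2, and 1, Il12rb2, was higher. Of the STAT3 targets 2 of 12 were higher, Batf (2.66) and Pim1 (2.14), and 4 lower, among them Bcl6 (-3.53). Of 15 cytokines 6 were higher and 5 lower. Lif (6.49), Il10 (5.96), Il13 (4.59) and Il5 (4.56) were the largest increases. Of 16 inhibitors 3 were higher and 4 lower, among them the phosphatase gene Ptpn6 (-2.03), and of 5 cofactors 4 were lower, among them Crebbp (-2.29) and Irf9. Crebbp was called under neither other scaling. The balance of the inhibitors turned with the scaling, to 5 higher and 2 lower after quantile normalization and 5 higher and 3 lower after median-ratio scaling, and 2 and 3 cofactors were lower under these scalings. The STAT2-IRF9, STAT6 and Janus kinase counts were the same under both. The STAT3 target and inhibitor counts on the deposited values are near or below the shares of all genes. The numbers in brackets are log2 fold changes.

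CD4 T and B cells, both from spleen, were compared by size alone, with 1 sample on each side and no test. A gene counted as different at a log2 fold change of 2 or more, provided its higher level was 5 FPKM or more, which took 2.56% of 12907 genes as higher and 1.7% as lower in CD4 T cells. None of the 6 STAT genes passed. Stat5b came nearest, at 58.7 FPKM in CD4 T cells, against 28.5 in B (log2 fold change 1.02). Stat4 (0.78), Stat5a (0.72) and Stat3 (0.37) were also higher in CD4 T cells by less, and Stat2 was lower (-0.39), at 32.6 FPKM in CD4 T cells, against 43.1 in B cells. Stat6 was at 77.6 FPKM in CD4 T cells, against 80.5 in B (-0.05).

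Some receptor and inhibitor genes passed the same rule, which took 2.56% of all genes as higher and 1.7% as lower. Of 25 receptor chains 6 were higher and 1 lower in CD4 T cells, among them Il7r, the IL-7 receptor, at 223 FPKM in CD4 T cells, against 3.64 in B cells, and Il6st at 65.8 in CD4 T cells, against 7.44 in B cells. Of 16 inhibitors 3 were higher and none lower: Cish at 26.0 in CD4 T cells, against 1.15 in B cells, Socs3 at 31.9 and 4.09, and Socs1 at 28.2 and 6.15 in CD4 T and B cells. No Janus kinase passed, with Jak1 at 195 in CD4 T cells, against 126 FPKM in B cells. Il4ra was at 51.4 in CD4 T cells, against 61.8 in B cells.

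Set against ES cells, 5 of the 6 STAT genes passed the size rule upward in CD4 T cells, where 10.8% of genes were higher and 11.9% lower. The exception was Stat3 at 60.0 FPKM in CD4 T cells, against 28.7 in ES (log2 fold change 1.04). Stat5b was at 58.7 in CD4 T cells, against 2.30 in ES (4.18), Stat5a at 20.4 in CD4 T cells, against 1.33 in ES (3.21), and Stat4 at 43.6 in CD4 T cells, against 3.89 in ES (3.19). Stat6 was at 77.6 in CD4 T cells, against 10.4 in ES (2.78), and Stat2 at 32.6 in CD4 T cells, against 5.25 in ES (2.43). The median of the 6 was 2.98, beside -0.16 over all genes.

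The same 5 genes passed in B cells against ES cells, where 9.45% of genes were higher and 13.4% lower, and Stat3 again did not (0.67). The comparisons share the ES libraries. Stat5b was at 28.5 FPKM in B and 2.30 in ES cells (3.16), Stat6 at 80.5 in B and 10.4 in ES cells (2.83), Stat2 at 43.1 in B and 5.25 in ES cells (2.82), Stat5a at 12.1 in B and 1.33 in ES cells (2.49) and Stat4 at 25.0 in B and 3.89 in ES cells (2.41). Fibroblast markers (8 genes) summed to 573 to 579 FPKM in ES libraries and at most 6.85 in any other, and feeder RNA as a source of STAT RNA in the ES libraries was not tested.

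Genes that act with STAT3 in ES cells were given the same comparison. Lifr, the LIF receptor, was at 2.23 FPKM in CD4 T cells, against 7.33 in ES cells, a difference short of the size rule, and Il6st at 65.8 in CD4 T, 7.44 in B and 19.9 in ES cells. Socs3, a STAT3 target and inhibitor, was at 31.9 in CD4 T, 4.09 in B and 43.3 in ES cells. Of the 12 STAT3 targets, CD4 T cells had 3 higher and 4 lower against ES cells. B cells had 2 higher and 5 lower. The size rule passed 10.8% of all genes upward and 11.9% downward for CD4 T cells. For B cells the shares were 9.45% and 13.4%. The higher targets included Batf (38.0 in CD4 T, 19.3 in B and 0.19 in ES cells). The lower ones included the pluripotency factors Klf5 (0.05 in CD4 T, 0.16 in B and 55.6 in ES cells) and Tfcp2l1 (0.015 in CD4 T, 0.02 in B and 37.8 in ES cells). Of the STAT2-IRF9 targets 11 of 12 were higher in CD4 T and 9 of 12 higher in B than in ES cells. Irf7 was at 81.7 FPKM in CD4 T, 39.9 in B and 0.45 in ES cells, and Mx1 at 15.5 in CD4 T cells, against 20.2 in B cells, and was listed at 0 in ES cells.

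The STAT genes resembled one another in their levels across the 7 samples to different degrees. Pearson's r of log2(FPKM + 1) was highest for Stat4 with Stat5b (0.98) and Stat3 with Stat5a (0.97), and 0.95 for the paralogs Stat5a and Stat5b. It was lowest for Stat6 with Stat3 (0.51), Stat5a (0.60) and Stat2 (0.62). These values describe 7 samples that fall into 5 groups and rest in part on the low ES sample. Among 10540 genes, the nearest to Stat2 were Rabgap1l (r = 0.9904), Gbp3 (0.9866) and Ifi35 (0.9844). Gbp3, an interferon-inducible GTPase gene, averaged 39.6 FPKM in TSA-treated Th2, 11.1 in untreated Th2, 14.5 in CD4 T, 34.8 in B and 0.4 in ES cells, so it was high where Stat2 was high.

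The nearest to Stat6 were Irak4 (r = 0.9934), Slc25a45 (0.9897) and Rela (0.9890). Irak4, a kinase gene of Toll-like receptor signalling, averaged 4.33 FPKM in TSA-treated Th2, 8.71 in untreated Th2, 16.5 in CD4 T, 17.2 in B and 1.07 in ES cells, the same order as Stat6. The nearest to Stat5b were Ptpn22 (0.9963), Gpr132 (0.9945) and Cytip (0.9937), and the nearest to Stat5a were Ifi47 (0.9984), Psme1 (0.9979) and Rasgrp1 (0.9963). For Stat4 they were Zc3hav1 (0.9933), Dcaf5 (0.9929) and Serpinb9 (0.9919), and for Stat3 Isoc2b (0.9908), Emp3 (0.9780) and Lgals3bp (0.9771). No gene was among the nearest 3 of more than 1 STAT gene.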

How the data were processed

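RNA was extracted with TRIzol and libraries were made with the TruSeq RNA kit v2, per the labels' protocols. The deposited files hold FPKM per transcript row, made by the authors with Bowtie 0.12.8, TopHat 1.3.2 and Cufflinks 2.0.2 on mm10, per the submitters' processing notes. The sources used here give no tool settings, strand use, read numbers or treatment of reads that match several places, so depth is unknown and counting intervals cannot be had. Deposited FPKM summed to 405438.5 to 521872.1 per library, and each file held 21035 rows. RefSeq names were used for 315 rows without a symbol and 30 rows with a date as symbol.

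The highest row was taken per gene. The STAT genes and all gene lists were chosen with earlier results of these data known. Other members of the family are not reported here. Near-identical pairs of libraries were averaged, which gave 7 samples. limma 3.58.1 in R 4.3.3 was run on log2(FPKM + 1) with a trend on genes that reached 1 FPKM in at least 2 libraries. It left 2 residual degrees of freedom, and CD4 T cells, with 1 sample, were given the spread of the Th2 groups. Genes at 0 in all 4 Th2 files or all 6 others were left out of Th2 against CD4 T cells. Fold changes on this scale understate low genes. Beside the STAT genes, the text names up to 4 members per list, the called genes that changed most and reached 5 FPKM in the higher group, and 16 genes fixed by name. Alternatives were the pseudocount, the filter, the scaling, the use of rows, separate libraries, no trend, a replicate block and each library left out. Drawings used matplotlib 3.10.9, and tables Python 3.11.15.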

Additional observations from a re-analysis of the deposited data

How the results depend on the processing

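Over 22 alternatives per tested comparison, Stat2 with TSA kept its direction in all and its call in 18, and Stat6 kept its direction in all and was called in 4. In those 4 (FPKM of 5 or more, quantile normalization, median-ratio scaling and 10 separate libraries) 1 STAT gene was called lower with TSA. Without one Th2 library, 0 were called higher. For Th2 against CD4 T cells, Stat5b was called in 19 of 22, Stat6 in 16 and Stat2 in 16. Median-ratio scaling left 1 STAT gene called lower, leaving out one library left 0 to 3, and 4 were lower with 10 separate libraries (Stat4 added) and with summed rows in 1 kind of file (Stat3 added, and Stat5b at -1.9, against -1.01). The cause was not tested. The 4 fits without a TSA-treated or untreated Th2 library have 1 residual degree of freedom, and the 6 without another library have 2.

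Counts over all genes called higher and lower with TSA were 570 and 201 with no filter, 3902 and 2872 with 10 separate libraries, and 0 to 1195 and 0 to 535 with 1 library left out. Without Th2 replicate 1, limma called 0 genes but had 1708 higher and 1035 lower at an unadjusted p below 0.05, and without replicate 2 it called 0 but had 1791 and 886. For Th2 against CD4 T cells, 3236 were higher after quantile normalization and 3369 with 10 separate libraries. With 1 library left out, 942 to 2086 were higher and 2246 to 4709 lower.

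Some values that were never called in the direction given changed sign. For Th2 against CD4 T cells, Stat3 was -0.04 after quantile normalization and -1.53 with summed rows in 1 kind of file, which triples Stat3 there by counting near-equal rows, and -0.14 to 0.20 with 1 library left out. Stat5a was 0.29 after quantile normalization, 0.36 after median-ratio scaling and -0.05 to 0.04 with 1 library left out. With TSA, Stat3 was -0.05 after median-ratio scaling and -0.14 to 0.21 with 1 library left out, and Stat5b -0.03 to 0.24. With 1 library left out, Socs1 ranged from -0.6 to 0.59 and Socs3 from -0.33 to 0.59.

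With a log2 threshold of 1, 1 STAT gene was higher in CD4 T than in B cells, with 856 genes higher and 567 lower. For CD4 T against ES cells 2488 were higher and 3012 lower, and for B against ES cells 2257 and 3221. Summed rows gave STAT totals of 373 FPKM in TSA-treated Th2, 358 in Th2, 463 in CD4 T, 351 in B and 110.0 in ES cells. Mean rows gave 289, 233 and 51.5 in CD4 T, B and ES cells.

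Replicate numbers are shared by the treated and untreated Th2 libraries, whose deviations correlated at 0.633 over 9418 genes, but 2 pairs are too few to take the numbers as pairing. With a replicate block, 1235 genes were higher and 661 lower with TSA, Stat2 had an adjusted p of 0.0485 and Stat6 of 0.0714. For Th2 against CD4 T cells the block ended the Stat6 call (adjusted p = 0.0604) and left 2 STAT genes lower. Unknown depth limits all of these values.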

Other observations

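Of the 6 NK and cytotoxic markers, 1 was called between TSA-treated and untreated cultures, upward. Over all genes 9.26% were called higher and 4.14% lower, so this count is near the share of all genes. Nkg7, a granule protein gene of cytotoxic cells, had 24.61 and 23.24 FPKM in TSA-treated and 9.3 and 7.43 in untreated Th2 libraries (log2 fold change 1.42, limma adjusted p = 0.0335), and it was also called after quantile normalization and median-ratio scaling. Gzma, a granzyme gene of cytotoxic cells, had 713.98 and 1043.82 FPKM in TSA-treated Th2, 338.82 and 984.56 in untreated Th2, and 3.39 and 3.32 in CD4 T libraries, while Ncr1, a marker of NK cells, was listed at 0 in all 4 Th2 libraries. With TSA Gzma had a log2 fold change of 0.58 (limma adjusted p = 0.578), and the untreated libraries differed from each other more than the treated ones did.

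Emr1, a macrophage marker, and Itgam, an integrin gene of myeloid cells, changed in opposite directions with TSA although both stand on the myeloid list. Emr1 fell to 0.51 and 0.39 FPKM in TSA-treated cultures, against 6.42 and 5.66 in untreated ones (limma adjusted p = 0.0251). Itgam had 2.08 and 2.02 FPKM in treated and 0.14 and 0.04 in untreated cultures (adjusted p = 0.0251). These genes were named after their values were seen.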
